A study of Homo sapiens with 12 samples.

Results

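A set of 9 genes that restrain the cell cycle or respond to p53 were followed across naive and primed human embryonic stem cells: MDM2, BTG2, ZMAT3, and the inhibitors of cyclin-dependent kinases (CDKs) CDKN1A, CDKN1B, CDKN2A, CDKN2B, CDKN2C and CDKN2D. They were chosen by name, with earlier results of these data known, and all 9 were listed in every table, out of 23615 gene symbols. RNA selected for its poly(A) tail was sequenced from hand-picked colonies of the established lines H9 and RUES-2, in 4 groups of 3 libraries (12 in all), to compare the naive with the primed state. Naive H9 (passages 27 to 31) and naive RUES-2 (passages 24 to 26) were kept with LIF (20 ng/mL) and with inhibitors of MEK (PD0325901, 1 µM) and of GSK3 (CHIR99021, 3 µM), in a medium holding 18 µg/mL insulin and glucose at 5 mM. Primed H9 (passages 31 to 35) and primed RUES-2 (passages 30 to 33) grew on mouse embryonic fibroblasts treated with mitomycin C, in medium with knockout serum replacement and 4 ng/mL bFGF. The states therefore differed in medium, inhibitors, feeder cells, passage number and passaging routine together, and these cannot be told apart here.

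The transcription factor p53 is held at a low level by MDM2, a ubiquitin ligase whose own gene p53 activates, so that the pair forms a feedback loop. When p53 is active it raises CDKN1A, which encodes p21, a protein that blocks CDK2 and slows entry into S phase. The INK4 proteins encoded by CDKN2A to CDKN2D bind CDK4 and CDK6 and keep the retinoblastoma protein RB active, while p14ARF, a second product of CDKN2A, inhibits MDM2. Pluripotent stem cells are known for short G1 phases and low levels of CDK inhibitors.

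Promoter sequence is shown for the 4 genes on which most of the results turn. Each line holds the bases before an annotated transcription start, taken from RefSeq on GRCh38.p14 and written 5′ to 3′ on the gene's strand, with 250 bases per window. For MDM2 (plus strand, chr12:68808767-68809016) the window lies before its internal start, the one known to answer to p53, and capitals mark 20-base tandem p53 elements. For CDKN1A (plus strand, chr6:36678464-36678713), BTG2 (plus strand, chr1:203305269-203305518) and CDKN2A (minus strand, chr9:21974858-21975107 before the p16INK4a start and chr9:21995325-21995574 before the p14ARF start) capitals mark the GC box GGGCGG on either strand. The second CDKN2A window holds no GC box.
MDM2: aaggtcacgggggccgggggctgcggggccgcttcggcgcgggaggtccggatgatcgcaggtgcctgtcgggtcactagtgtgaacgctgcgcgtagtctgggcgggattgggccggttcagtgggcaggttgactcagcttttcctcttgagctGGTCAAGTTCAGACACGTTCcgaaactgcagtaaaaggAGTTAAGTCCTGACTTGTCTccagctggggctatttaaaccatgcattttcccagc
CDKN1A: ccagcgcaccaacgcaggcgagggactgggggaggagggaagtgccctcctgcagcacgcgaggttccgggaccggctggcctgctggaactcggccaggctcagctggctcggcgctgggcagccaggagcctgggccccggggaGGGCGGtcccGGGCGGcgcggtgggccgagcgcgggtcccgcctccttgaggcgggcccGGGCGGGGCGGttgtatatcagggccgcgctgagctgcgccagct
BTG2: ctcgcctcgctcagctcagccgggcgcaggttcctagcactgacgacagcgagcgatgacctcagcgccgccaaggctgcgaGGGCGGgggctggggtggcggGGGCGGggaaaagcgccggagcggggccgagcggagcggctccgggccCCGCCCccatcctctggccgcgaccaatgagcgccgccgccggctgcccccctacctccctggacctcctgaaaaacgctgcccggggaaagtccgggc
CDKN2A, p16INK4a start: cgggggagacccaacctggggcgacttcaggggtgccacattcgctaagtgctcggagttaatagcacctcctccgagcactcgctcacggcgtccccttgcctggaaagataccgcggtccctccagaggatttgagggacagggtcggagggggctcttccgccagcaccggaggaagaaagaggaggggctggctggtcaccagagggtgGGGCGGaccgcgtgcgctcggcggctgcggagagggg
CDKN2A, p14ARF start: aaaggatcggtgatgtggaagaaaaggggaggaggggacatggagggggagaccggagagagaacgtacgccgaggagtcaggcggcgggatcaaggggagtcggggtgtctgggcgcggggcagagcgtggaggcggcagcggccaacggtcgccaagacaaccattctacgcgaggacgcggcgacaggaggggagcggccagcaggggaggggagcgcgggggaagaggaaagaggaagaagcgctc

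The RefSeq table held 16 windows for the 9 genes. A single exact copy of the p53 consensus motif occurred in 0 of the 16 windows, against 5.57% of 35116 windows of the same length over all genes. A search for the 20-base tandem with up to 3 mismatches was added after the exact search. It found the tandem in 4 windows, of MDM2 (both windows of the internal start), CDKN1B and CDKN2B, against 4.36% of all windows. These MDM2 windows overlap and hold the same elements, so that stretch was counted in each. In the MDM2 window printed here the elements began 94 and 56 bases before the start, with 2 and 3 mismatches. GGGCGG occurred in 12 of the 16 windows, against 42.6% of all windows, and the STAT motif TTCNNNGAA in 0, against 6.57%. Such matches are descriptions of letters in a short window, and the known p53 sites of CDKN1A lie farther upstream than these windows reach.

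Levels are in FPKM, the fragments of a gene divided by its transcript length and by the mapped fragments of the library. Over all genes the FPKM sums of the libraries ran from 762869 to 992404, and 12681 to 13592 genes per library reached 1 FPKM. From the deposited confidence bounds, a gene of 1 to 2 FPKM rested on 47.5 to 112 fragments at the median of a library. Line identity was checked with 11 genes whose expression depends on genotype. Of the libraries labelled RUES-2, 3 differed from the rest of that label, an even split with no majority. Those labelled H9 did not differ among themselves. With 7 of these genes alone, 0 libraries differed within a label. Results for RUES-2 are therefore those of the libraries as labelled, and in those comparisons line and state may not be told apart. Single libraries are left out in turn below, but no comparison was rerun to leave out a whole side of this split. The state comparison within H9 contrasts libraries labelled H9 only.

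The pluripotency genes POU5F1, SOX2, NANOG, LIN28A, SALL4, DPPA4 and PODXL had group means of 28.0 FPKM or more in all 4 groups. Of these 7 genes, 0 were higher and 3 lower in naive H9 (median log2 difference -0.76), and 1 was higher and 6 lower in naive RUES-2 (median -1.07). Each count of markers in this paragraph stands beside the shares over all genes tested. These were 20.4% higher and 23.9% lower in naive H9, and 23.1% higher and 23.6% lower in naive RUES-2. POU5F1 averaged 436 FPKM in naive H9 against 909.8 FPKM in primed H9, and 527 FPKM in naive RUES-2 against 779 FPKM in primed RUES-2. The summed level of the 7 was 1218 to 1286 FPKM in naive H9 against 1799 to 2232 FPKM in primed H9, and 1312 to 1568 FPKM in naive RUES-2 against 1800 to 2024 FPKM in primed RUES-2. Of 6 tested markers of the naive state, 3 were higher and 0 lower in naive H9. In naive RUES-2, 2 were higher and 0 lower. DNMT3L and SUSD2 were called higher in naive libraries of both lines. KLF17 averaged 0.104 FPKM in naive H9 and 0.0374 FPKM in naive RUES-2, close to absent. TFCP2L1, not tested, averaged 0.155 FPKM in naive H9 against 0.442 FPKM in primed H9. In RUES-2 it averaged 0.654 FPKM in the naive and 0.922 FPKM in the primed state. DPPA5 also had lower means in the naive state of both lines. Of 6 tested markers of the primed state, 0 were higher and 5 lower in naive H9, and 0 were higher and 4 lower in naive RUES-2. Fibroblast markers and markers of mesendoderm and amnion also moved with the state. Of 17 tested fibroblast genes 12 were higher and 1 lower in naive H9, and 10 were higher and 2 lower in naive RUES-2. The summed level of all 18 listed fibroblast genes was 684 to 949 FPKM in naive H9 against 362 to 773 FPKM in primed H9. It was 416 to 1579 FPKM in naive RUES-2 against 371 to 640 FPKM in primed RUES-2. FAP, listed but too low to be tested, was at 0 in all primed libraries. Its means were 0.161 FPKM in naive H9 and 0.594 FPKM in naive RUES-2. Of 11 tested genes of mesendoderm and amnion 9 were higher and 0 lower in naive H9. In naive RUES-2, 8 were higher and 1 lower. The summed level of the 12 listed was 150 to 259 FPKM in naive H9 against 15.9 to 40.9 FPKM in primed H9. It was 129 to 216 FPKM in naive RUES-2 against 50.6 to 65.8 FPKM in primed RUES-2. The part of these cell type markers in the results below was not tested. In such bulk libraries, a larger share of cells that express a gene and more RNA per cell cannot be told apart.

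**Figure D1:**
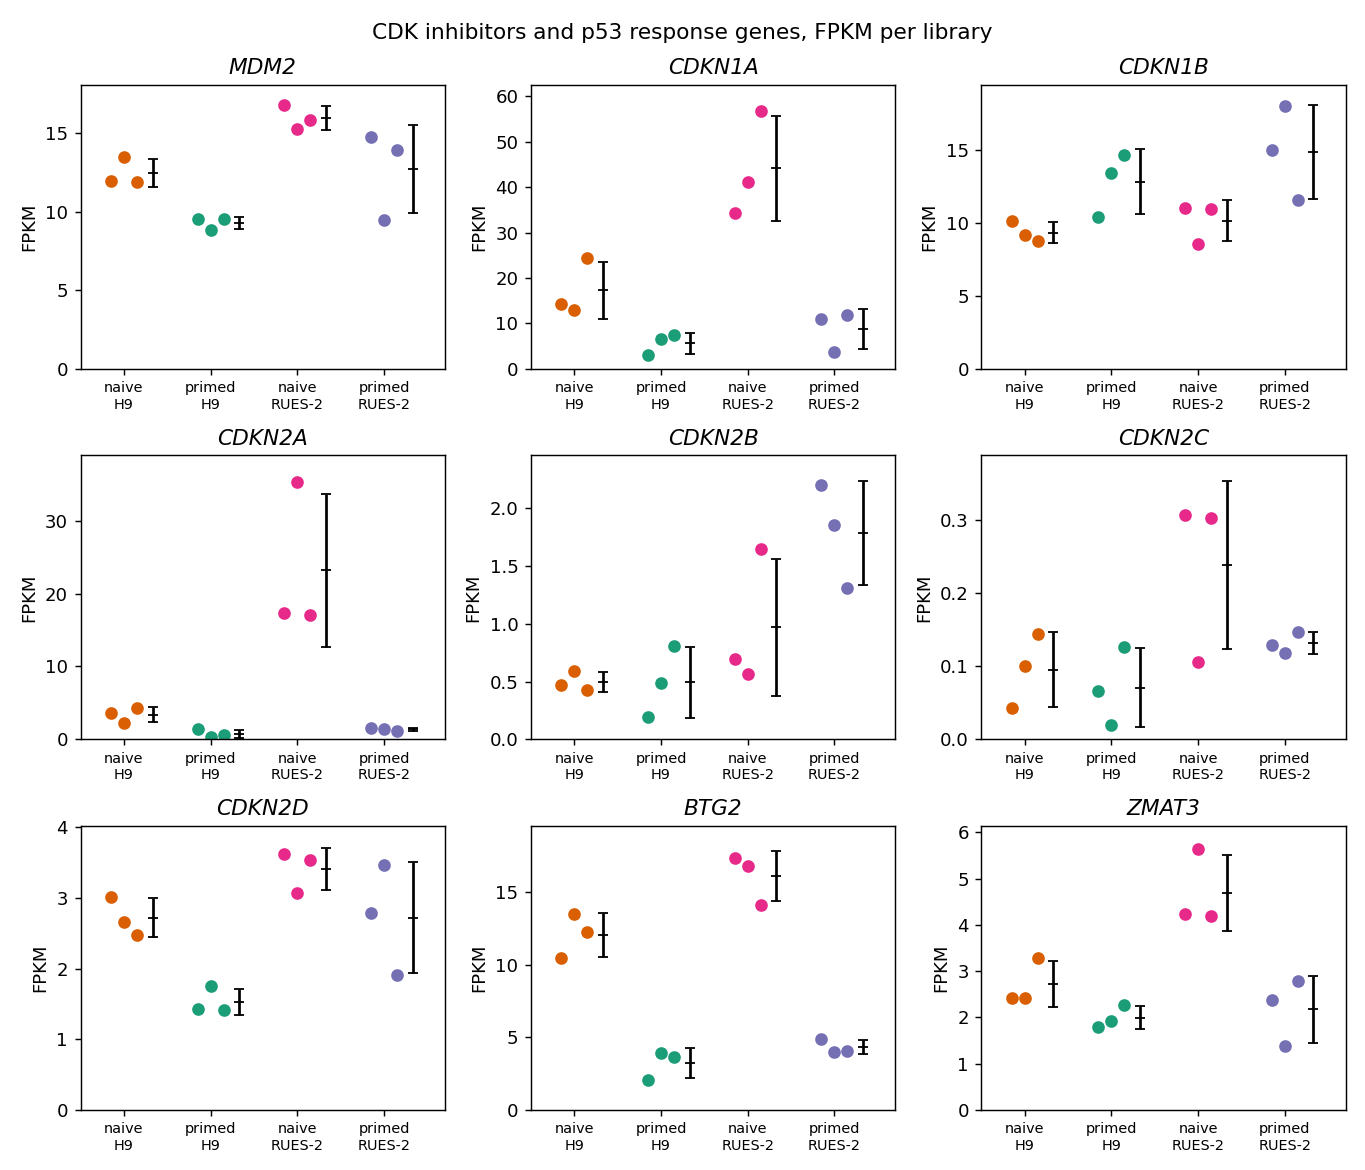
FPKM of each of the 9 genes (y axis, linear, starting at 0, with its own scale per panel) in each library (coloured points), with the mean and SD of each group of 3 libraries in black, for naive H9, primed H9, naive RUES-2 and primed RUES-2. MDM2, CDKN1A, CDKN2A, BTG2 and ZMAT3 lie higher in all naive libraries than in all primed libraries of the same line, and CDKN2C stays under 0.31 FPKM everywhere.

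In naive H9, 5 of the 8 genes tested were higher than in primed H9 and none was lower. They were BTG2, CDKN1A, CDKN2A, CDKN2D and MDM2, with mean levels 1.34 to 4.49 times those of primed H9. The tests used limma on log2(FPKM + 1) over the 14428 genes that reached 1 FPKM in 3 or more libraries, with p-values adjusted by Benjamini-Hochberg and called under 0.05. Of all genes tested, 20.4% were called higher and 23.9% lower in naive H9 (44.3% in either direction). In naive RUES-2, 4 of the 8 were higher (CDKN2A, CDKN1A, BTG2 and ZMAT3) and 1 was lower (CDKN1B), against 23.1% higher and 23.6% lower among all genes (46.8% in either direction). CDKN1A, CDKN2A and BTG2 were called higher in both lines, as were 13.2% of all genes tested. The median difference over the 8 genes was 0.47 in H9, against -0.01 over all genes, and 0.59 in RUES-2, against 0.01 over all genes. CDKN2C did not reach the filter on low values and was not tested. A log2 difference is between group means of log2(FPKM + 1), a scale on which changes of genes with low levels are understated.

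**Figure D2:**
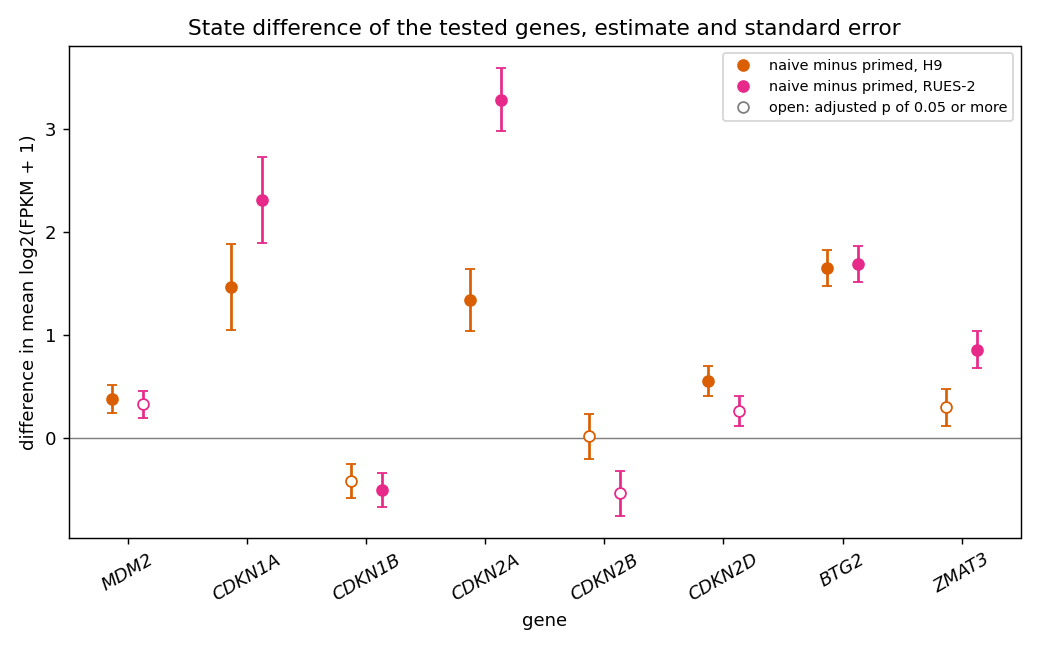
Difference in mean log2(FPKM + 1), naive minus primed (y axis), for the 8 tested genes (x axis) in H9 (orange) and RUES-2 (pink), with standard errors as bars. Filled points have an adjusted p under 0.05. CDKN2A in RUES-2 has the highest value, 3.28, and CDKN1B is below 0 in both lines.

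MDM2 (chr12:69201971-69239320 on hg19, the build of the deposited tables) measured 11.96, 13.5 and 11.9 FPKM in naive H9, against 9.50, 8.85 and 9.51 FPKM in primed H9. All naive H9 libraries lay above all primed H9 libraries, by a log2 difference of 0.38 ± 0.134 (SE; adjusted p = 0.0386, limma). That call ended without any 1 of the H9 libraries, at adjusted p = 0.066 to 0.123, without naive RUES-2 replicate 1 (0.0512) or 3 (0.0521), without the filter on low values (0.0509) and with quantile normalization (0.0628). In naive RUES-2 MDM2 measured 16.8, 15.3 and 15.8 FPKM, against 14.8, 9.48 and 13.9 FPKM in primed RUES-2. The groups did not overlap there either, but primed RUES-2 replicate 2 stood low, and the difference of 0.33 ± 0.134 did not pass (adjusted p = 0.0665). Without primed RUES-2 replicate 1 it passed, at 0.44 (adjusted p = 0.0291). In order of mean level the groups ran from naive RUES-2 (16.0 FPKM) through primed RUES-2 (12.7) and naive H9 (12.4) to primed H9 (9.29), and the middle groups overlapped. One annotated start was listed for MDM2, so its internal promoter is not separated in these values.

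CDKN1A (p21; chr6:36644237-36655116), the classical p53 target among the inhibitors, measured 14.4, 12.9 and 24.5 FPKM in naive H9, against 3.04, 6.53 and 7.36 FPKM in primed H9. Every naive H9 library exceeded every primed one, and the mean was 3.06 times as high, with a log2 difference of 1.47 ± 0.417 (SE; adjusted p = 0.0157, limma). The spread within groups was wide, and the call ended without naive H9 replicate 3, the highest (1.21, adjusted p = 0.0632), and without primed H9 replicate 1, the lowest (1.15, 0.0588). In naive RUES-2 it measured 34.4, 41.2 and 56.9 FPKM, against 10.96, 3.68 and 11.7 FPKM in primed RUES-2. These groups were also separate, with a mean 5.02 times as high and a log2 difference of 2.31 ± 0.417 (adjusted p = 0.00131), which held without any 1 library (adjusted p up to 0.00617). The groups ran from naive RUES-2 (44.2 FPKM) through naive H9 (17.3) and primed RUES-2 (8.80) to primed H9 (5.64), and the primed groups overlapped.

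BTG2 (chr1:203274664-203278729), an antiproliferative p53 target that takes part in the turnover of mRNA, had the lowest adjusted p of the 8 genes in H9. It measured 10.4, 13.5 and 12.2 FPKM in naive H9, against 2.08, 3.95 and 3.65 FPKM in primed H9. The groups were far apart, with a mean 3.74 times as high and a log2 difference of 1.65 ± 0.173 (adjusted p = 4.63e-05, limma). It measured 17.4, 16.8 and 14.1 FPKM in naive RUES-2, against 4.85, 3.99 and 4.06 FPKM in primed RUES-2. The ratio of means was 3.75 and the log2 difference 1.69 ± 0.173 (adjusted p = 3.96e-05). Leaving out any 1 library kept both calls, with adjusted p up to 0.000377 in H9 and 0.00032 in RUES-2. No group overlapped its neighbour in the order naive RUES-2 (16.1 FPKM), naive H9 (12.1), primed RUES-2 (4.30) and primed H9 (3.23).

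ZMAT3 (chr3:178735011-178789656), a p53 target that encodes an RNA-binding zinc finger protein, measured 2.43, 2.42 and 3.28 FPKM in naive H9, against 1.79, 1.92 and 2.27 FPKM in primed H9. The groups did not overlap, but the log2 difference of 0.30 ± 0.178 did not pass (adjusted p = 0.188, limma). In naive RUES-2 it measured 4.22, 5.63 and 4.19 FPKM, against 2.38, 1.37 and 2.78 FPKM in primed RUES-2. There the mean was 2.15 times as high, and the log2 difference was 0.86 ± 0.178 (adjusted p = 0.00287). It held without any 1 library (adjusted p up to 0.0131). The groups ran from naive RUES-2 (4.68 FPKM) through naive H9 (2.71) and primed RUES-2 (2.174) to primed H9 (1.99), and each but the first overlapped its neighbour.

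CDKN2A (chr9:21967751-21994490) encodes p16INK4a and p14ARF from different first exons, and the deposited value per gene does not separate them. Its annotated end overlaps that of C9orf53 by a few bases. The gene measured 3.58, 2.26 and 4.34 FPKM in naive H9, against 1.40, 0.321 and 0.544 FPKM in primed H9. All naive H9 libraries lay above all primed H9 libraries, with a mean 4.49 times as high and a log2 difference of 1.34 ± 0.303 (SE; adjusted p = 0.00517, limma). In naive RUES-2 it measured 17.3, 35.4 and 17.0 FPKM, against 1.55, 1.36 and 1.17 FPKM in primed RUES-2. The naive RUES-2 libraries stood far above the rest and replicate 2 was the highest of them, and the mean was 17.1 times that of primed RUES-2. The log2 difference was 3.28 ± 0.303 (adjusted p = 2.12e-05). Both calls held without any 1 library, with adjusted p up to 0.0236 in H9 and 0.000161 in RUES-2. The deposited bounds imply as few as 6.29 fragments for the gene in the lowest primed library, so the low primed values are imprecise. In order of level came naive RUES-2 (23.2 FPKM), naive H9 (3.39), primed RUES-2 (1.36) and primed H9 (0.755), of which the primed groups overlapped.

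CDKN2D (p19INK4d; chr19:10677138-10679655) measured 3.02, 2.66 and 2.48 FPKM in naive H9, against 1.42, 1.75 and 1.41 FPKM in primed H9. These groups were separate, with a log2 difference of 0.56 ± 0.145 (adjusted p = 0.0106, limma) that held without any 1 library (up to 0.0441). In naive RUES-2 it measured 3.63, 3.07 and 3.54 FPKM, against 2.79, 3.47 and 1.90 FPKM in primed RUES-2. Here the groups overlapped, and the difference of 0.27 ± 0.145 did not pass (adjusted p = 0.159). It passed without primed RUES-2 replicate 2, at 0.41 (0.0332). Naive RUES-2 (3.41 FPKM), primed RUES-2 (2.72) and naive H9 (2.72) overlapped in turn, and primed H9 (1.53) stood apart below them.

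CDKN2B (p15INK4b; chr9:22002902-22009312), whose gene answers to TGF-beta, was low throughout. It measured 0.468, 0.589 and 0.428 FPKM in naive H9, against 0.193, 0.484 and 0.807 FPKM in primed H9, and 0.692, 0.566 and 1.65 FPKM in naive RUES-2, against 2.20, 1.85 and 1.31 FPKM in primed RUES-2. Groups overlapped in both lines, and neither the difference of 0.02 ± 0.216 in H9 (adjusted p = 0.954, limma) nor that of -0.53 ± 0.216 in RUES-2 (0.0664) passed. Without naive RUES-2 replicate 3, the highest of its group, the RUES-2 difference was -0.76 (0.00997), and without primed RUES-2 replicate 3 it was -0.66 (0.047). CDKN2B lies inside the locus of its antisense RNA CDKN2B-AS1, and since no source used here says whether the libraries are stranded, its values are uncertain. CDKN2B-AS1 averaged 1.77 FPKM in naive H9 against 1.40 FPKM in primed H9, and 1.72 FPKM in naive RUES-2 against 2.21 FPKM in primed RUES-2, and passed neither in H9 (adjusted p = 0.194) nor in RUES-2 (0.149). The means of CDKN2B ran from primed RUES-2 (1.79 FPKM) through naive RUES-2 (0.968) to naive H9 (0.495) and primed H9 (0.495), and every neighbour overlapped.

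CDKN2C (p18INK4c; chr1:51434367-51440309) ranged from 0.0190 to 0.307 FPKM over the 12 libraries. The deposited lower bound was 0 in 9 of them, so a difference between groups was not detectable at this depth. Its mean was 0.0955 FPKM in naive H9 against 0.0704 FPKM in primed H9, and 0.238 FPKM in naive RUES-2 against 0.132 FPKM in primed RUES-2, with overlap in both lines.

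CDKN1B (p27; chr12:12870302-12875305), an inhibitor of cyclin E and CDK2 that is controlled mainly through the stability of its protein, ran the other way. It measured 10.1, 9.13 and 8.73 FPKM in naive H9, against 10.4, 13.4 and 14.6 FPKM in primed H9. All naive H9 libraries lay below all primed ones, but the log2 difference of -0.41 ± 0.165 did not pass (adjusted p = 0.067, limma). It passed without primed H9 replicate 1 (-0.54, 0.0299), primed RUES-2 replicate 2 (0.0457) or primed RUES-2 replicate 3 (0.0401). In naive RUES-2 it measured 10.97, 8.51 and 10.9 FPKM, against 14.96, 17.9 and 11.6 FPKM in primed RUES-2. These groups were separate too, and CDKN1B was lower in naive RUES-2 by a log2 difference of -0.50 ± 0.165 (adjusted p = 0.0308). That call ended without naive RUES-2 replicate 2 (-0.39, 0.111), primed RUES-2 replicate 1 (-0.48, 0.0789) or primed RUES-2 replicate 2 (-0.36, 0.111), and when RUES-2 libraries were fitted alone (0.0619). The means ran from primed RUES-2 (14.8 FPKM) through primed H9 (12.8) and naive RUES-2 (10.1) to naive H9 (9.32), and every neighbour overlapped.

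Counted over libraries, 6 of the 9 genes lay higher in all naive H9 libraries than in all primed H9 libraries, and 1 lay lower, against 27% and 30.3% of all genes tested. Between naive and primed RUES-2 5 lay higher and 1 lower, against 29% and 28.3%. The state comparisons of the lines share no library, but their fit shares 1 estimate of the spread.

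The difference of the state effect between lines, RUES-2 minus H9, was called for 1 of the 8 genes, CDKN2A, where it was higher, against 5.7% of all genes tested (3.77% higher and 1.93% lower). Its value was 1.94 ± 0.429 on the log2 scale (adjusted p = 0.028, limma). The call ended with a pseudocount of 0.1 (1.73, 0.145) or 0.25 (1.83, 0.0936), after rescaling without short RNAs (1.80, 0.0676), and without naive H9 replicate 1 (0.0641) or 2 (0.0684), primed H9 replicate 1 (0.0504), or primed RUES-2 replicate 1 (0.0578) or 3 (0.0582). For CDKN1A the difference was 0.83 ± 0.59 (adjusted p = 0.466), for ZMAT3 0.55 ± 0.251 (0.24), and for CDKN2B -0.55 ± 0.305 (0.342). Those of MDM2, CDKN1B, CDKN2D and BTG2 lay between -0.29 and 0.04, none with an adjusted p under 0.46. A p that misses the threshold does not show that the lines responded alike.

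Between the lines within a state, libraries are shared with the state comparisons. In the naive state 2 of the 8 genes were higher in RUES-2 than in H9, against 11.2% of all genes tested (4.69% were lower, 15.9% in either direction). CDKN2A averaged 23.2 FPKM in naive RUES-2 against 3.39 FPKM in naive H9 (log2 difference 2.41 ± 0.303, adjusted p = 0.000721, limma), and this held without any 1 library (up to 0.0042). ZMAT3 averaged 4.68 FPKM in naive RUES-2 against 2.71 FPKM in naive H9 (0.61 ± 0.178, 0.0422), a call that ended without naive H9 replicate 1 or 2, primed H9 replicate 1 or 2, any 1 of the naive RUES-2 libraries or primed RUES-2 replicate 1 (adjusted p = 0.0503 to 0.152). It also ended with a smaller pseudocount, without the filter on low values and under each other scaling (0.0531 to 0.109). CDKN1A averaged 44.2 FPKM in naive RUES-2 against 17.3 FPKM in naive H9 and did not pass (1.33 ± 0.417, 0.0557). It passed without primed H9 replicate 1 (0.0465) or primed RUES-2 replicate 2 (0.0203), and when naive libraries were fitted alone (0.0244). MDM2 did not pass either (0.34 ± 0.134, 0.119), but did without primed RUES-2 replicate 2 (0.0133) and with naive libraries fitted alone (0.0257). Over libraries 6 of the 9 genes were higher in all naive RUES-2 than in all naive H9 libraries, against 26.9% of all genes (19.3% were lower throughout). In the primed state 0 of the 8 were called by limma, against 1.82% of all genes (1.34% higher and 0.471% lower). MDM2, CDKN2B and CDKN2D had an unadjusted limma p under 0.05. The share of all genes with such a p was not counted, and the 1.82% is not a measure of it. CDKN2B averaged 1.79 FPKM in primed RUES-2 against 0.495 FPKM in primed H9 without overlap (0.91 ± 0.216, adjusted p = 0.0677), and passed without primed H9 replicate 3 (0.046) or naive RUES-2 replicate 3 (0.0409). MDM2 passed without primed RUES-2 replicate 2 (0.57, 0.00748) and CDKN2D without primed RUES-2 replicate 3 (0.71, 0.0279). CDKN2B, CDKN2D and BTG2, 3 of the 9 genes, lay higher in all primed RUES-2 than in all primed H9 libraries, and 0 lay lower, against 8.7% and 5.93% of all genes.

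Of 17 tested regulators of p53, 0 were higher and 5 lower in naive H9, and 1 was higher and 6 lower in naive RUES-2, with median log2 differences of -0.18 in H9 and -0.02 in RUES-2. Of all genes tested, 20.4% were higher and 23.9% lower in naive H9, and 23.1% were higher and 23.6% lower in naive RUES-2. CHEK2, a kinase that phosphorylates p53 after DNA breaks, was lower in the naive state of both lines (-0.50 in H9, adjusted p = 0.0108, limma, and -0.44 in RUES-2, 0.0183). The RUES-2 call ended without naive RUES-2 replicate 3 (0.0621) or primed RUES-2 replicate 1 (0.0705). TRIM24, a ubiquitin ligase of p53, was lower in naive H9 (-0.37, 0.0258) and naive RUES-2 (-0.63, 0.0016), but the H9 call ended without naive H9 replicate 2 or 3 or primed H9 replicate 1 or 3 (0.0509 to 0.092). SIRT1, which deacetylates p53, was lower in naive H9 (-0.54, 0.0307) and naive RUES-2 (-0.66, 0.0113), and its H9 call ended without any H9 library except primed H9 replicate 2 (0.0591 to 0.109) and with H9 fitted alone (0.0602). MDM4, the partner of MDM2, passed in neither line (-0.18 in H9, adjusted p = 0.141, and 0.23 in RUES-2, 0.0654), though the RUES-2 value passed without naive RUES-2 replicate 1 (0.0472) and with quantile normalization (0.0396). PPM1D, a phosphatase that dampens p53 signalling, had differences of 0.12 in H9 (0.518) and 0.01 in RUES-2 (0.949).

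Other targets of p53 moved in both directions. Of 40 tested, 4 were higher and 7 lower in naive H9, and 7 were higher and 6 lower in naive RUES-2, with medians of 0.01 in H9 and 0.09 in RUES-2. Over all genes the shares were 20.4% higher and 23.9% lower in naive H9, and 23.1% higher and 23.6% lower in naive RUES-2. Only C12orf5 (TIGAR), a regulator of glycolysis, was called higher in both lines, while RRM2B, DDB2, TNFRSF10A, CYFIP2 and TRIM22 were called lower in both. These were 2.5% and 12.5% of the list, against 13.2% of all genes higher and 16.5% lower in both lines. TRIM22, also an antiviral gene induced by interferon, averaged 2.13 FPKM in naive H9 against 12.6 FPKM in primed H9 (-2.12, adjusted p = 0.00119, limma), and 3.07 FPKM in naive RUES-2 against 11.2 FPKM in primed RUES-2 (-1.42, 0.00991). The call in RUES-2 ended when RUES-2 was fitted alone (0.0517). PMAIP1 (NOXA), which promotes apoptosis, averaged 16.2 FPKM in naive H9 against 67.6 FPKM in primed H9 (-1.82, 0.00368), and 29.9 FPKM in naive RUES-2 against 54.2 FPKM in primed RUES-2 without passing (-0.85, 0.0951). It passed there without primed H9 replicate 2 (0.0351) or 3 (0.0305), and with RUES-2 fitted alone (0.0457). CYFIP2 was lower in naive H9 (-1.32, 0.000157) and naive RUES-2 (-0.55, 0.0194), the RUES-2 call ending without naive RUES-2 replicate 1 (0.0727) or 3 (0.0592) or primed RUES-2 replicate 3 (0.0649). TNFRSF10A, a death receptor, was lower in naive H9 (-0.74, 0.0252) and naive RUES-2 (-0.81, 0.0152). Its H9 call ended without any H9 library except primed H9 replicate 3 (0.0502 to 0.0811), and its RUES-2 call without primed RUES-2 replicate 1 (0.0535) or 3 (0.0563). Between lines in the naive state 12 of the 40 were higher in RUES-2 and 0 lower, against 11.2% and 4.69% of all genes, with a median of 0.35, against 0.02 over all genes.

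**Figure D3:**
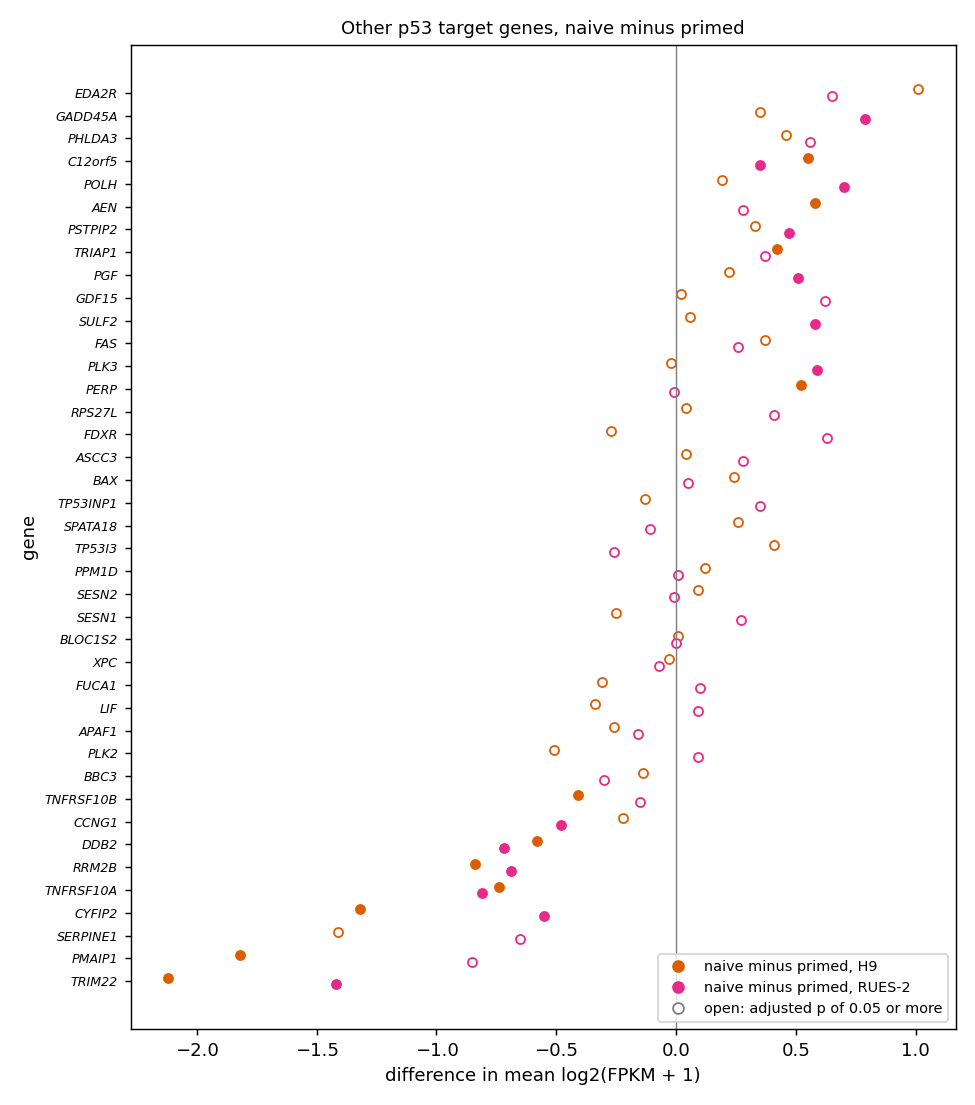
Difference in mean log2(FPKM + 1), naive minus primed (x axis), of the 40 other p53 target genes (y axis, ordered by the mean of both lines) in H9 (orange) and RUES-2 (pink). Filled points have an adjusted p under 0.05 and open points do not. The values lie on both sides of 0, with TRIM22 and PMAIP1 lowest.

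A list of 27 genes held CDKs, cyclins and RB and E2F genes, along with CDKN1C, CDKN3, SKP2, CKS1B and CKS2. Of the 27, 8 were higher and 3 lower in naive H9, and 6 were higher and 2 lower in naive RUES-2. The medians were 0.21 in H9 and 0.10 in RUES-2. The shares over all genes were 20.4% higher and 23.9% lower in naive H9, and 23.1% higher and 23.6% lower in naive RUES-2. CDKN1C (p57), the third inhibitor of the CDKN1 family, had the largest mean difference of this list. It averaged 15.7 ± 3.72 FPKM in naive H9 against 4.23 ± 1.13 FPKM in primed H9 (SD, n = 3; log2 difference 1.68, adjusted p = 0.00103, limma), and 12.1 ± 3.93 FPKM in naive RUES-2 against 5.50 ± 2.05 FPKM in primed RUES-2 (1.01, 0.0149). The RUES-2 call ended without naive RUES-2 replicate 1 (0.0511) or 3 (0.0568) or primed RUES-2 replicate 3 (0.0553). CCND1, the cyclin D1 partner of CDK4 and CDK6, was higher in naive H9 (0.76, adjusted p = 0.000107) and naive RUES-2 (0.40, 0.0044). CDK4 was higher in naive H9 (0.38, 0.0285) and naive RUES-2 (0.37, 0.0326), but the H9 call ended without any H9 library except primed H9 replicate 2 (0.0634 to 0.0974), and the RUES-2 call without any RUES-2 library except primed RUES-2 replicate 2 (0.0597 to 0.121). CDK6 was higher in naive H9 (0.61, 0.0352), a call that ended without naive H9 replicate 1 or 3 or primed H9 replicate 2 or 3 (0.0756 to 0.132) and with H9 fitted alone (0.109), and it did not pass in RUES-2 (0.24, 0.361). RB1 was higher in naive RUES-2 (0.46, 0.025), ending without any 1 of the naive RUES-2 libraries or primed RUES-2 replicate 2 (0.0527 to 0.0655), and was 0.35 in H9 (0.0755), passing there without primed RUES-2 replicate 2 (0.0148). CDK2, the target of p21 and p27, passed in neither line (-0.16 in H9, 0.144, and -0.09 in RUES-2, 0.402). CCND2 had values of opposite sign, 0.54 in RUES-2 (0.0662) and -0.53 in H9 (0.0754), that did not pass, nor did their difference (1.07, 0.0757). The H9 value passed without primed H9 replicate 1 (0.0339) or naive RUES-2 replicate 3 (0.0287), and the RUES-2 value without naive RUES-2 replicate 1 (0.0363).

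**Figure D4:**
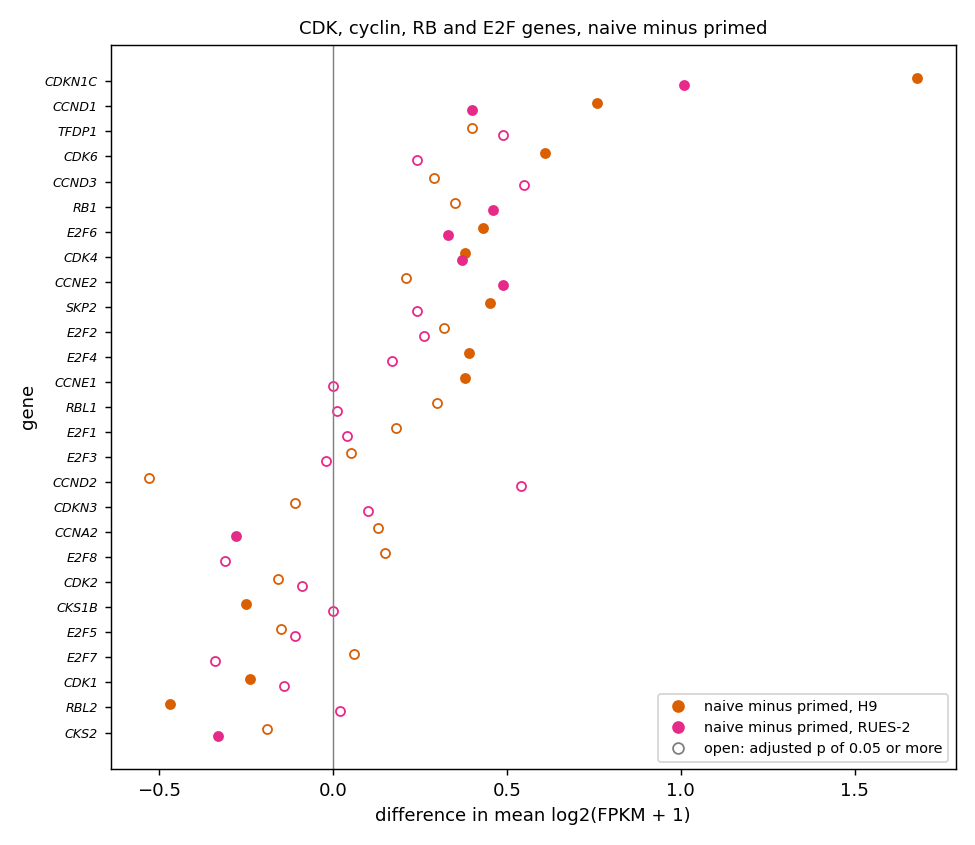
Difference in mean log2(FPKM + 1), naive minus primed (x axis), in H9 (orange) and RUES-2 (pink). The 27 genes (y axis, ordered by the mean of both lines) are CDK, cyclin, RB and E2F genes with CDKN1C, CDKN3, SKP2, CKS1B and CKS2. Filled points have an adjusted p under 0.05 and open points do not. CDKN1C stands highest, at 1.68 in H9 and 1.01 in RUES-2.

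Among 19 tested regulators of the CDKN genes, 5 were higher and 5 lower in each line, against 20.4% and 23.9% of all genes in H9 and 23.1% and 23.6% in RUES-2. BMI1, a Polycomb protein known to repress CDKN2A, was higher in the naive state of both lines. It averaged 6.34 FPKM in naive H9 against 2.1 FPKM in primed H9 (1.25, adjusted p = 0.0031, limma), and 8.07 FPKM in naive RUES-2 against 2.04 FPKM in primed RUES-2 (1.66, 0.000524). CBX7, another Polycomb protein that represses CDKN2A, averaged 0.226 FPKM in naive H9 against 1.66 FPKM in primed H9 (-1.08, 0.000764), and 0.422 FPKM in naive RUES-2 against 2.14 FPKM in primed RUES-2 (-1.14, 0.000503). FOXO1, of the FOXO family that activates CDKN1B, averaged 3.65 FPKM in naive H9 against 14.2 FPKM in primed H9 (-1.69, 2.38e-05), and 4.30 FPKM in naive RUES-2 against 14.7 FPKM in primed RUES-2 (-1.58, 3.58e-05). MYC, which represses CDKN1A and CDKN2B, went opposite ways in the lines. It averaged 265 ± 141 FPKM in naive RUES-2 against 19.5 ± 3.12 FPKM in primed RUES-2 (SD, n = 3; 3.58, adjusted p = 2.25e-05, limma), and 14.5 ± 0.243 FPKM in naive H9 against 31.3 ± 12 FPKM in primed H9 (-0.99, 0.0343). Its H9 call ended without any H9 library except primed H9 replicate 2 (0.0697 to 0.125). The difference of the state effect was 4.57 ± 0.473 (adjusted p = 0.00108).

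Within the family of BTG2, 4 other genes were tested. BTG1 was lower in naive H9 (-0.74, adjusted p = 0.0457, limma), a call that ended without any 1 library except primed H9 replicate 2 or primed RUES-2 replicate 3 (0.0552 to 0.114), and was -0.66 in RUES-2 (0.0677), passing there without primed H9 replicate 2 (0.0187) or 3 (0.00696), with RUES-2 fitted alone (0.012) and after rescaling without short RNAs (0.0491). BTG3 averaged 18.6 FPKM in naive RUES-2 against 8.82 FPKM in primed RUES-2 (1.01, 0.000171), and in H9 the difference was 0.33 (0.0605), passing without primed H9 replicate 3 (0.0411) or primed RUES-2 replicate 2 (0.0236), with median-of-ratios scaling (0.0452) and with H9 fitted alone (0.046). TOB2 was lower in naive RUES-2 (-0.32, 0.0417), a call that ended without naive H9 replicate 2 or 3, primed H9 replicate 1, naive RUES-2 replicate 1 or 3, or primed RUES-2 replicate 1 or 2 (0.0524 to 0.14), and did not pass in H9 (-0.27, 0.0769).

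The genes whose log2(FPKM + 1) most resembled each member's over the 12 libraries were found among about 10220 genes that averaged 5 FPKM or more in some group, as a description; libraries of a group share line and state. By Pearson's r, LMNA (0.96) and SIL1 (0.956) were most like CDKN1A, SBDS (0.981) and RP9P (0.977) most like BTG2, and ABCB10 (0.985) and HOXD13 (0.984) most like CDKN2A. For MDM2 they were CCDC59 (0.953) and FUNDC1 (0.938), for CDKN1B CACNA2D2 (0.957) and MNF1 (0.949), and for ZMAT3 CINP (0.962) and SCARB1 (0.96). For CDKN2D they were GLIPR2 (0.949) and CTDSP1 (0.943), and for CDKN2B ZNF394 (0.902) and SMAGP (0.894).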

How the data were processed

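Libraries were made with the TruSeq RNA kit, and bcl2fastq 2.17.1.14, TopHat2 2.1.1 and hg19 were used, per the submitters' processing notes. No source used here names the program behind the expression values, its annotation or the strandedness. FPKM values with confidence bounds were deposited by the authors, 1 table a library, per the file headers, although the design text names RPKM. Each table held 25278 entries for 23615 symbols. For the 554 symbols with several loci the one of highest mean level was used, and 2 values with a status other than OK were left out, leaving 23613 symbols. No counts were available, and 29.2% to 32.9% of values under 60 implied fragments lay within 0.05 of a whole number, so no count test was run.

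Two-sided tests were made with limma 3.58.1 (R 4.3.3) on log2(FPKM + 1) for the 14428 genes that reached 1 FPKM in 3 or more libraries, with 1 mean per group over the 12 libraries, a variance trend and Benjamini-Hochberg adjustment over all genes. The labels do not say how cultures were separated, so p-values reflect the spread between libraries, which may be technical. The script was tested on simulated data of 14428 genes for the H9 comparison, where 98% of log2 changes of 2 and 74% to 86% of changes of 0.8 to 1.2 were recovered. Each size of change was given to 50 genes, all above a set mean level. Recovery of changes under 0.8, or in genes as low as CDKN2B, was not measured. Python 3.11.15, numpy 2.4.6, pandas 2.3.3 and matplotlib 3.10.9 made the other tables and plots.

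The members and gene lists were chosen with earlier results of these data known. From each list up to 4 genes called in at least 1 line with the largest mean state difference are named, besides MDM4, PPM1D, CDKN1C, CDK2, CDK4, CDK6, CCND1, CCND2 and MYC, and genes singled out otherwise were chosen after their values were seen. A gene of the list of p53 regulators is not reported here, and counts for that list leave it out. PPM1D stands in the lists of regulators and of targets of p53. Y-linked genes and XIST were left out of the search for similar genes. Alternatives were other pseudocounts, filters, scalings and fits, the replicate number as a block, and each library left out.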

Additional observations from a re-analysis of the deposited data

Results flagged for a closer look

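The state difference of CDKN2A differed between the lines by 1.94 on the log2 scale (adjusted p = 0.028, limma), being higher by 3.28 in naive RUES-2 and by 1.34 in naive H9, each against the primed libraries of its line. All naive libraries of both lines lay above the primed ones, and the call for the difference ended under the alternatives named with it. The state difference of MYC differed by 4.57 (adjusted p = 0.00108, limma), with 3.58 in RUES-2 and -0.99 in H9. In both cases the libraries labelled RUES-2 are those that split in the identity check, and the part of this split in the result was not tested.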

How the results depend on the processing

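Of the single-gene results under the alternatives, 1812 kept their direction and side of the threshold, 122 lost a call, 37 gained one and 22 reversed direction. A call was lost or gained by its adjusted p alone, whatever the size of the difference. All reversals were of values near 0 that were not called. Counts of calls are not among these, and were taken as unchanged when they stayed within 1.5 times. Rescaling without short RNAs gave a median of all genes of -0.094 for RUES-2 against H9 in the naive state, against 0.020, a shift of over 0.1; no other scaling or comparison shifted it that far. Relative to that median, CDKN1B between naive groups is not lower there. The causes of the changes below were not tested. The 1 call among the 8 genes for the difference between lines became 0 with a pseudocount of 0.1 or 0.25, after rescaling without short RNAs, and with the replicate block. Over all genes the difference of the state effect between lines had 424 calls with a filter of 5 FPKM, against 823, with fewer genes tested. RUES-2 against H9 in the naive state had 2 calls among the 8 genes. These became 1 with either pseudocount, no filter, median-of-ratios scaling, quantile normalization or rescaling, and 4 with only the naive groups fitted. The filter of 5 FPKM also left 1 call, but ZMAT3, CDKN2B and CDKN2D did not reach that filter and were not tested there. With that filter this comparison had 1469 calls over all genes, against 2289. RUES-2 against H9 in the primed state had calls over all genes of 102 with that filter, 27 with only the primed groups fitted and 170 with the block, against 262. For the other settings, counts over all genes are not given beside the calls among the 8 genes. Changes in those calls are therefore not read as particular to the 8 genes.

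Without 1 library the calls among the 8 genes ran from 3 to 6 in H9, 4 to 6 in RUES-2, 0 to 1 for the difference, 0 to 1 between primed groups and 1 to 4 between naive groups. Over all genes they ran from 5049 to 6683 in H9, 5571 to 7279 in RUES-2, 408 to 920 for the difference, 61 to 385 between primed groups and 1213 to 2811 between naive groups. Reversed values were BTG2 for the difference (-0.03, -0.02 and -0.09 with pseudocounts of 0.1 and 0.25 and after rescaling, and -0.09 to 0.25 without 1 library), ZMAT3 between primed groups (-0.0036 with quantile normalization, -0.08 to 0.26 without 1 library), CDKN1B between naive groups (-0.02 after rescaling) and PPM1D in RUES-2 (-0.05 after rescaling, -0.03 to 0.06 without 1 library). Leaving out 1 library also reversed PPM1D (-0.05 to 0.28) and CDKN2B (-0.13 to 0.17) in H9, and the difference for MDM2 (-0.24 to 0.06) and CDKN1B (-0.24 to 0.05).

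The labels use the same replicate numbers in every group, but same-numbered libraries had correlations of deviations of -0.054 to 0.136 over 18 pairs, not all over 0.1, so the numbers do not show a pairing. With the replicate block CDKN1B in RUES-2 (adjusted p = 0.0533), MYC in H9 (0.0591), BTG1 in H9 (0.0667), CDKN2A for the difference (0.0534) and ZMAT3 between naive groups (0.0535) were no longer called, while CDKN1A between naive groups (0.0334), CCND2 in H9 (0.0159) and RUES-2 (0.013) and TOB2 in H9 (0.0273) were.

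Outside the 9 genes, calls also ended for TRIM24 in H9 after rescaling (0.0625), TNFRSF10A in H9 with quantile normalization (0.0977), CDK6 in H9 without a filter (0.0522), CDK4 in H9 fitted alone (0.074) and in RUES-2 after rescaling (0.0867), RB1 in RUES-2 fitted alone (0.0624), and TOB2 in RUES-2 without a filter (0.0504) or fitted alone (0.0658). BTG1 in H9 lost its call under 4 such settings (0.0554 to 0.12). Genes of few fragments, CDKN2C above all, limit what differences can be seen at this depth.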
